A study of Leucoraja erinaceus with 6 samples.

Results

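RNA-binding proteins and splicing factors were followed in spinal cord cells of wild-type little skate (Leucoraja erinaceus) embryos at stage 30-31. The series holds 3 libraries of pectoral fin motor neurons, the neurons that drive the large paired fins, and 3 libraries of tail spinal cord cells, all from manually sorted cells. Members were the rows of the deposited expression table whose protein description holds a phrase such as splicing factor, ribonucleoprotein, RNA binding, pre-mRNA, Elav-like or DEAD, and there were 45 of them among 7080 rows, of which 1577 carry a description. Values are TPM, an abundance scaled for transcript length and library total. Nothing in the labels ties the libraries to different embryos, and the p-values below therefore cover the library-to-library spread alone, possibly a technical one. The groups differ in both cell class and body level, and these cannot be told apart.

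Before an mRNA leaves the nucleus, its introns are removed by the spliceosome, which is assembled from small nuclear ribonucleoproteins (snRNPs) around uridine-rich small RNAs. SR proteins and hnRNP proteins bind exons and introns and steer the choice of splice sites, while DEAD-box proteins are ATP-driven helicases that remodel RNA and its protein complexes. In vertebrate neurons a further layer of RNA-binding proteins, among them the Elav-like, CELF, muscleblind and STAR families, sets neuron-specific splicing and mRNA stability.

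The members fell into 14 snRNP and spliceosome rows, 7 SR proteins, 5 DEAD-box proteins, 3 hnRNP proteins, 3 neural RNA-binding proteins, 11 other RNA-binding proteins, 1 other ribonucleoprotein and 1 chromatin remodeller. That last row, SMARCAD1, met the rule through the words DEAD/H box in its description and is counted but is not known as a splicing protein. A symbol stands for the protein in the description, without proof of skate orthology. Values are listed in the order of pectoral replicates 1, 2 and 3 and of tail replicates 1, 2 and 4, and where a pair of sets is joined by the word against, the pectoral set comes first. The letters a and b, as in RBM39a, repeat the zebrafish-style names of the descriptions, and each letter pair may stand for a single skate gene.

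Most members were low. The median member averaged 2.34 TPM over the 6 libraries, against 1.65 TPM for all rows and 2.1 TPM for rows with a description. In every library 5 members (11.1%) reached 1 TPM, against 9.14% of all rows and 16.4% of described rows. SNRNP70 had the highest mean, 21.1 TPM, and RBM34 the lowest, 0.185 TPM. In all, 30 members (66.7%) passed the filter of at least 1 TPM in at least 3 libraries and were tested. The share was 53.0% for all rows and 59.4% for described rows. PRPF4 passed only through the pectoral and RBM39b only through the tail libraries, so these 2 had to differ in order to be tested.

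The libraries differed in how much of the table they held. Rows at 0 ranged from 5 in pectoral replicate 1 to 3552 in tail replicate 4, and members at 0 from 0 to 18 in the same libraries. In pectoral replicate 1, 96.8% of rows and 44 of 45 members stood at 0.5 TPM or more, against 32.2% to 69.3% of rows in the other 5 libraries. At most 5 rows could therefore be at 0 in every pectoral library. Rows at 0 in every tail library had no such limit, so the 2 patterns cannot be compared. Read depth is unknown, so a value of 0 means only that the row is listed at 0. Of 7 motor neuron markers 4 had a row, and these summed to 7.99 to 11.6 TPM in pectoral and 2.91 to 5.96 TPM in tail libraries. ISL1 and ISL2 were higher in every pectoral library than in any tail library, CHAT and SLC18A3 overlapped, and MNX1, LHX3 and SLC5A7 were not analysed here. Markers of progenitors summed to 73.7 to 116 TPM in pectoral and 22.7 to 55.2 TPM in tail libraries but went both ways. ID4 was higher in every pectoral library, and FABP7 was highest in a pectoral library. SOX2, SOX9 and PAX6 were highest in a tail library, though SOX2 and SOX9 were at 0 in tail replicate 4. Markers of dividing cells summed to 1.62 to 12.9 TPM against 12.8 to 40.9 TPM. There CCND1 was higher in every tail library, MCM7 in every pectoral library, and CCNB1 and PCNA overlapped. The 2 general neuron markers with a row, of 9 listed, summed to 20.2 to 46.3 TPM against 4.65 to 45.5 TPM. COL2A1, the 1 of 5 connective tissue markers with a row, reached 69.0 TPM in pectoral replicate 2 and at most 4.91 TPM elsewhere. Markers of oligodendrocytes, muscle, blood and endothelium, and epidermis were not analysed here. The part of such cells in the values below was not tested.

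**Figure D1:**
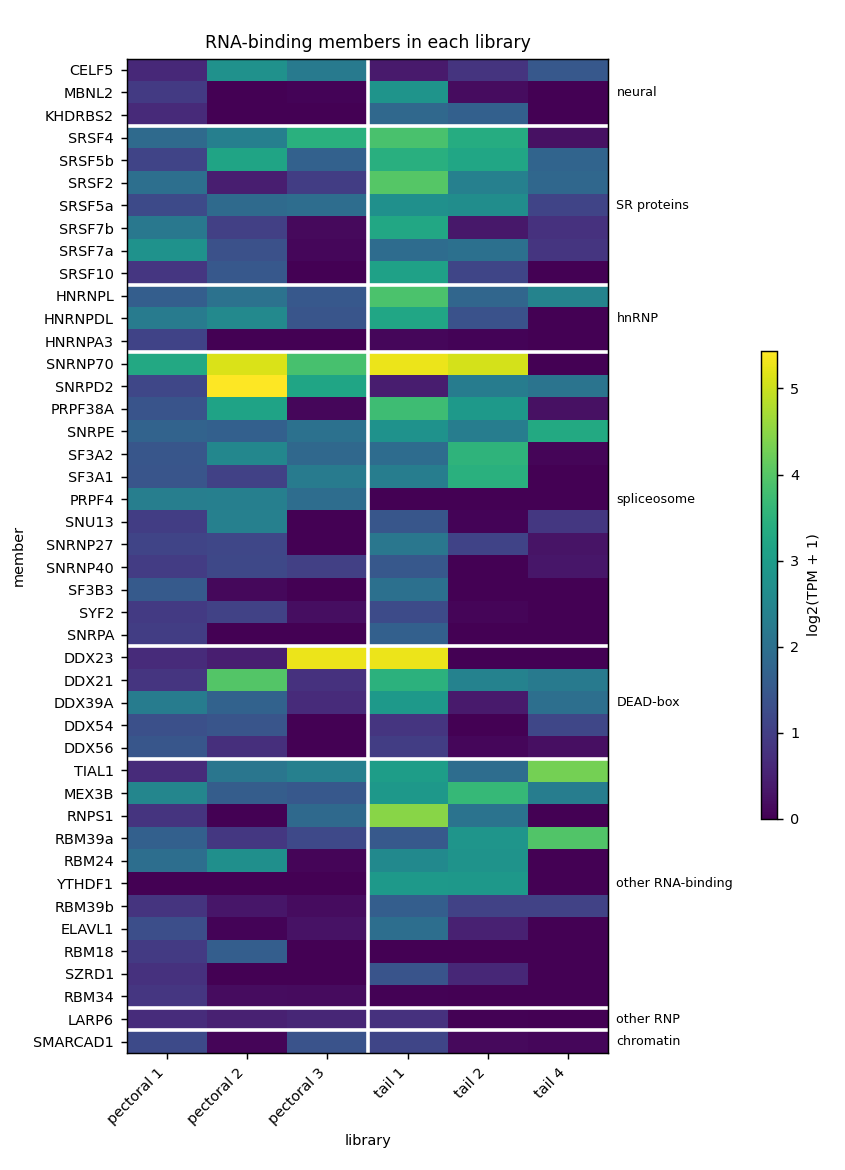
Level of each of 44 members (rows, grouped by class) in each library (columns), as log2(TPM + 1). The tail replicate 1 column is the brightest for 25 of them, and the tail replicate 4 column is dark, with 17 of them at 0.

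No member passed the test between the groups. With limma on log2(TPM + 1) and Benjamini-Hochberg adjustment over 3752 tested rows, 0 of 30 tested members had an adjusted p under 0.05, where 0.08% of all tested rows did. Those were 2 rows higher in pectoral (0.0533%) and 1 higher in tail libraries (0.0267%), or 1 and 0 with median-ratio scaling and 3 and 0 with quantile scaling. At an unadjusted p under 0.05 there was 1 member, PRPF4, against 7.04% of all tested rows. A member that did not pass is not thereby shown to be equal between the groups. Even PRPF4, at 0 in every tail library, had a log2 fold change of 2.21 and a limma adjusted p of 0.542. Complete separation of the groups was seen in 3 tested members, against 11.8% of all tested rows. PRPF4 was separated in the pectoral direction, as were 4.18% of tested rows, and SNRPE and RBM39b in the tail direction, as were 7.6%. The share among members is near this background. In bulk libraries like these, fewer cells of a type and less RNA per cell cannot be told apart.

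Of the 30 tested members 20 had a negative log2 fold change (pectoral minus tail), or 66.7%, against 56.5% of all tested rows. Their median was -0.39, beside -0.18 for all rows. Median-ratio scaling shifted the median of all rows by 0.27, to 0.09, and left 16 negative members with a median of -0.13. Without tail replicate 1 the members split into 15 negative and 15 positive, with a median of 0.02 beside 0.17 for all rows. Without tail replicate 4 there were 24 negative members and a median of -0.92, beside -0.44 for all rows.

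**Figure D2:**
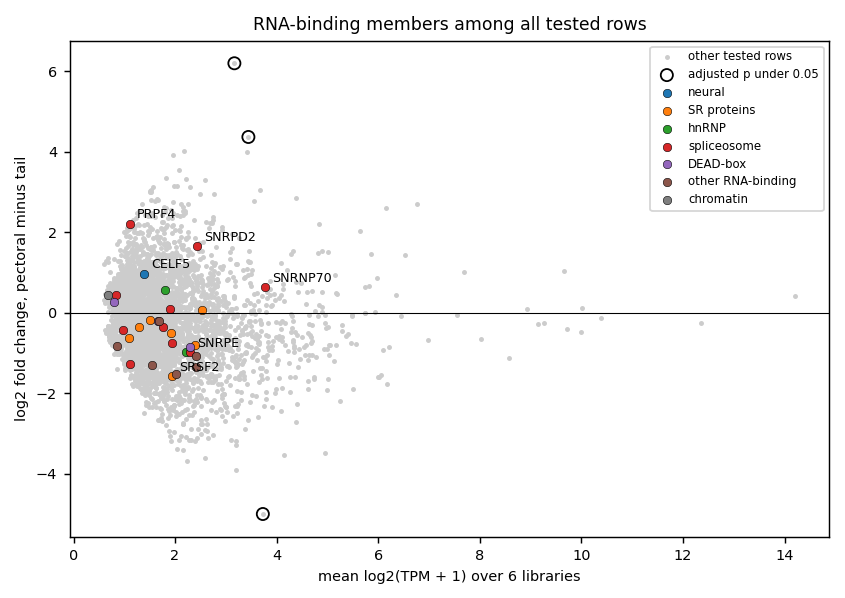
Log2 fold change (pectoral minus tail, fitted difference of mean log2(TPM + 1)) against mean log2(TPM + 1) for the 3752 tested rows, with the 30 tested members coloured by class and rows past the adjusted threshold circled. The 3 circled rows are not members, and the members lie within the cloud of other rows.

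Tail replicate 1 held the highest value of 26 of 45 members, or 57.8%, while it held the highest value of 29.2% of all rows. After median-ratio scaling, in which its size factor of 1.97 was the largest, it was the highest library for 10 members (22.2%) and 13.1% of rows. Pectoral replicate 2 was then highest for 14 members (31.1%) and 14.8% of rows. Summed over all members, the level was 83.5, 172 and 110 TPM in pectoral replicates 1, 2 and 3 and 302, 152 and 73.8 TPM in tail replicates 1, 2 and 4. The tail libraries thus spanned both ends of the range, and the groups overlapped.

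As assigned by description, class sums overlapped between the groups for snRNPs, SR, hnRNP, DEAD-box and neural proteins. The 11 other RNA-binding proteins had pectoral sums of 15.8, 14.3 and 10.4 TPM and tail sums of 54.8, 38.0 and 38.2 TPM, so every tail library stood above every pectoral one. The sum of tail replicate 4 was not low in this class, unlike in the snRNP class, where it had 13.6 TPM against 94.2 and 70.2 TPM in tail replicates 1 and 2. Counted by rows, 6 of these 11 members (54.5%) were at 0 in tail replicate 4. The same held for 5 of 14 snRNP and spliceosome rows (35.7%) and 50.2% of all rows. In tail replicate 4, TIAL1 and RBM39a supplied 18.6 and 14.5 TPM of its 38.2 TPM. The assignment of rows to classes bears on this. RBM39a, RBM39b and RNPS1, which are SR-related proteins by function, were counted here by their descriptions. With these 3 rows among the SR proteins, the SR class had pectoral sums of 21.9, 20.7 and 20.2 TPM and tail sums of 88.4, 42.0 and 23.4 TPM and no longer overlapped. This rested on RBM39a in tail replicate 4, which supplied 14.5 of the 23.4 TPM there, and on the choice of rows. Rows of other classes that may also count as SR-related were not moved. Among them SNRNP70 had 8.75 TPM or more in each pectoral library and 37.6, 32.9 and 0.000421 TPM in tail replicates 1, 2 and 4. The SR proteins by description had 7.78 TPM in that library, under their pectoral sums of 16.1 to 19.6 TPM. The 8 other RNA-binding proteins then left had 6.32 to 13.2 TPM in pectoral and 22.5 to 29.7 TPM in tail libraries, still apart. Of the 22.5 TPM in tail replicate 4, TIAL1 supplied 18.6 TPM. No test was made of these sums, since the members were chosen with results known.

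**Figure D3:**
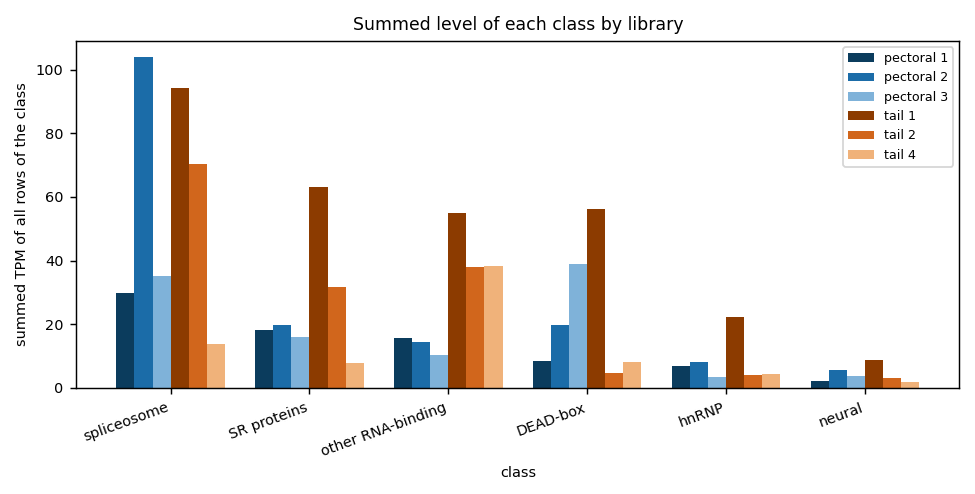
Summed TPM of all rows of a class (bars) in each of the 6 libraries, for 6 classes. The other RNA-binding proteins are the class whose 3 tail bars, from 38.0 to 54.8 TPM, all exceed the 3 pectoral bars, from 10.4 to 15.8 TPM.

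Among neural RNA-binding proteins 1 of 3 members passed the filter and was tested. CELF5, a brain-enriched member of the CELF family that regulates alternative splicing, had pectoral values of 0.550, 5.72 and 3.72 TPM and tail values of 0.314, 0.763 and 1.82 TPM. Pectoral replicates 2 and 3 were above every tail library and pectoral replicate 1 was not, so the groups overlapped. The log2 fold change was 0.97 (SE 0.97, limma adjusted p = 0.894), and it was positive in each of the fits that left out 1 library, from 0.53 to 1.59.

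KHDRBS2, also called SLM1, is a STAR-family splicing regulator of neurons. Its row had pectoral values of 0.570, 0 and 0 TPM and tail values of 2.58, 2.18 and 0 TPM. MBNL2, a muscleblind protein that controls splicing in the developing brain, had pectoral values of 0.904, 0 and 0.0400 TPM and tail values of 5.99, 0.133 and 0 TPM. In both rows the highest value was that of tail replicate 1, and tail replicate 4 was listed at 0 like 1 or 2 pectoral libraries, so the groups overlapped. ELAVL1, the broadly expressed Elav-like protein that stabilises mRNAs, had pectoral values of 1.49, 0.0421 and 0.195 TPM and tail values of 2.88, 0.409 and 0 TPM. Like the described rows of KHDRBS2 and MBNL2 it did not reach 1 TPM in 3 libraries and was not tested. The neuronal Elav-like genes ELAVL2, ELAVL3 and ELAVL4 were not analysed here.

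The spliceosome was the largest class and went both ways, with 5 negative and 5 positive log2 fold changes among 10 tested members and a median of -0.12. The median turned with the setting. It was 0.24 with median-ratio scaling and 0.55 with a pseudocount of 0.1, and -0.67 with array weights. The median of all tested rows was 0.09, -0.13 and -0.15 under these settings, in that order. Without 1 library it ranged from -0.83 (7 negative and 3 positive, without tail replicate 4) to 0.28 (4 and 6, without tail replicate 2), and it was also positive, from 0.03 to 0.10, without pectoral replicate 1, pectoral replicate 3 or tail replicate 1. SNRNP70, the U1 snRNP protein that helps recognise the 5′ splice site, was the most abundant member. It had pectoral values of 8.75, 33.8 and 13.5 TPM and tail values of 37.6, 32.9 and 0.000421 TPM. The value of tail replicate 4 was near 0 while the other 5 libraries were all above 8 TPM. The splicing factor 3a subunits of the U2 snRNP had the same gap. SF3A1 had pectoral values of 1.70, 1.08 and 3.78 TPM and tail values of 3.97, 9.97 and 0.00561 TPM. SF3A2 had 1.73, 4.76 and 2.58 TPM against 2.77, 10.6 and 0.0522 TPM. Tail replicate 4 was thus the lowest library in all 3 rows, and tail replicate 2 the highest for both 3a subunits.

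PRPF4, a protein of the U4/U6 snRNP, had pectoral values of 3.98, 4.11 and 2.87 TPM, and each tail library listed it at 0. The reverse was hardly possible for any row, since pectoral replicate 1 listed only 5 rows at 0. The 3 pectoral values lay close together. With limma the unadjusted p was 0.00908 and the adjusted p 0.542. PRPF4 is named after its values were seen, and it was tested only because the pectoral libraries reached 1 TPM.

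SNRPE, a Sm core protein shared by the spliceosomal snRNPs, went the other way. It had pectoral values of 2.32, 2.16 and 3.07 TPM and tail values of 5.84, 3.91 and 8.80 TPM, with no overlap. The means were 2.51 ± 0.487 and 6.19 ± 2.47 TPM (SD, n = 3 each). On the log2 scale the difference was -0.98 (SE 0.97, limma adjusted p = 0.894). In the fits without 1 library it ranged from -1.23 to -0.73.

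SNRPD2, another Sm core protein, did not follow SNRPE. It had pectoral values of 1.23, 42.3 and 8.16 TPM and tail values of 0.361, 3.88 and 3.25 TPM. A single library, pectoral replicate 2, held the high value, and pectoral replicate 1 lay below 2 of the 3 tail libraries. The log2 fold change was 1.66 (SE 1.07, limma adjusted p = 0.842), and it ranged from 0.57 to 2.71 in the fits without 1 library.

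**Figure D4:**
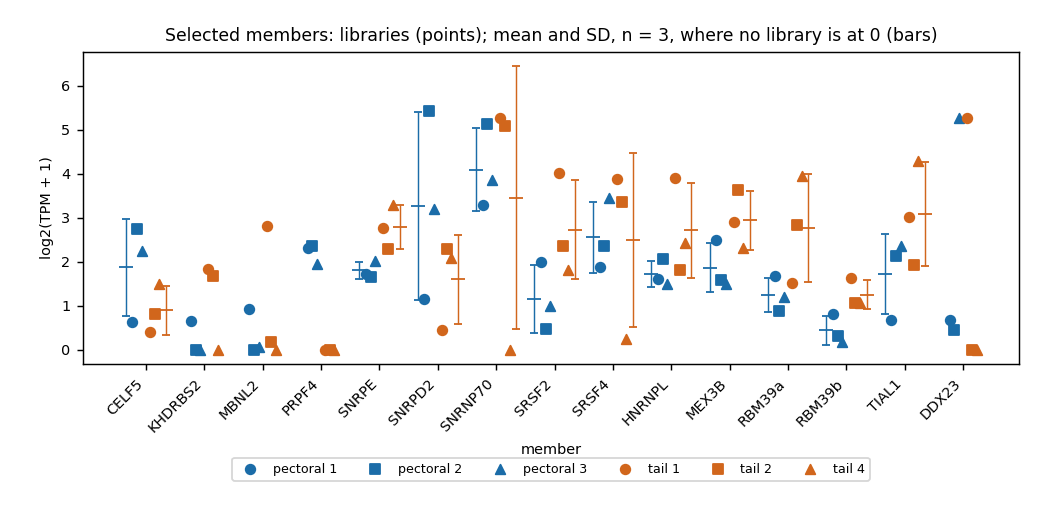
Log2(TPM + 1) of 15 members in each library (points, blue pectoral and orange tail), with the group mean and SD (n = 3) for members with no library at 0. PRPF4, SNRPE and RBM39b are the members shown whose pectoral and tail points do not overlap.

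PRPF38A, a protein of spliceosome activation, had pectoral values of 1.68, 7.84 and 0.0657 TPM and tail values of 12.5, 6.61 and 0.186 TPM. It was highest in tail replicate 1 and the groups overlapped. SNRNP40, a U5 snRNP protein, had pectoral values of 0.952, 1.27 and 1.04 TPM and tail values of 1.83, 0 and 0.248 TPM, so the pectoral values were the more even. SNRNP27, of the tri-snRNP, had 1.17, 1.23 and 0 TPM against 3.45, 1.15 and 0.227 TPM. The 4 rows SNU13, SF3B3, SYF2 and SNRPA did not pass the filter and were not tested. Their highest values were 4.16, 3.02, 1.36 and 2.18 TPM, in pectoral replicate 2 for SNU13 and in tail replicate 1 for the other 3.

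All 7 SR proteins were tested, 0 passed, and 6 had a negative log2 fold change, with a median of -0.50. The negative count was 5 of 7 with median-ratio scaling, quantile scaling or array weights and without pectoral replicate 3 or tail replicate 2. It was 4 of 7 without tail replicate 1, where the median was -0.01, and 7 of 7 without tail replicate 4, where it was -1.07. Tail replicate 1 was the highest library for 6 of the 7. SRSF2, a founding SR protein that binds exonic enhancers, had pectoral values of 2.96, 0.380 and 0.995 TPM and tail values of 15.1, 4.17 and 2.54 TPM. Pectoral replicate 1 lay above tail replicate 4, so the groups overlapped. The log2 fold change was -1.58 (SE 1.03, limma adjusted p = 0.842), which became -0.95 when tail replicate 1 was left out and -2.04 when tail replicate 4 was.

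SRSF4, a larger SR protein, was the most abundant of the class. It had pectoral values of 2.66, 4.10 and 9.89 TPM and tail values of 13.7, 9.30 and 0.183 TPM. Again tail replicate 4 was the lowest and tail replicate 1 the highest. SRSF5b had pectoral values of 1.16, 8.03 and 2.22 TPM and tail values of 9.82, 8.31 and 2.38 TPM, and SRSF5a had 1.32, 2.67 and 2.84 TPM against 5.65, 5.35 and 1.18 TPM. Both SRSF5 rows were at 1 TPM or more in all 6 libraries. The SRSF7 rows differed in their highest library. SRSF7a peaked at 5.84 TPM in pectoral replicate 1 and SRSF7b at 8.60 TPM in tail replicate 1, and both fell under 0.1 TPM in pectoral replicate 3. SRSF10, which acts as a splicing repressor when dephosphorylated, had 0.811, 1.83 and 0 TPM against 7.61, 1.19 and 0 TPM.

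Among hnRNP proteins, HNRNPL, which binds CA-rich elements, had pectoral values of 2.07, 3.16 and 1.83 TPM and tail values of 13.9, 2.49 and 4.39 TPM. It was at 1 TPM or more in all 6 libraries and the groups overlapped through tail replicate 2. HNRNPDL had pectoral values of 3.81, 4.85 and 1.72 TPM and tail values of 8.30, 1.57 and 0 TPM. HNRNPA3, too low to test, stood at 1.14 TPM in pectoral replicate 1 and at no more than 0.0624 TPM elsewhere.

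Of the 5 DEAD-box proteins 3 were tested, 2 with a negative and 1 with a positive log2 fold change, or 1 and 2 with median-ratio scaling, quantile scaling or array weights and without pectoral replicate 3 or tail replicate 1. Without tail replicate 2 all 3 were negative, with a median of -0.90. Of all tested rows 56.5% were negative in the main fit, 46.5% with median-ratio scaling and 55.9% without tail replicate 2. DDX23, the U5 snRNP helicase that acts at spliceosome activation, had pectoral values of 0.589, 0.365 and 37.6 TPM and tail values of 37.8, 0 and 0 TPM. It was high in 1 library of each group, at nearly the same level, and too low in the other 4 to be tested. DDX21, a nucleolar helicase, had 0.784, 14.7 and 0.714 TPM against 10.3, 4.35 and 3.63 TPM, with pectoral replicate 2 above all others. DDX39A, a helicase of mRNA export, had 3.86, 2.28 and 0.579 TPM against 6.52, 0.309 and 2.96 TPM. DDX54 and DDX56, both known from ribosome assembly, did not exceed 1.74 TPM in any library.

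Of the 11 other RNA-binding proteins 6 were tested. All 6 had a negative log2 fold change, from -1.52 to -0.20, and 0 passed. The negative count was 5 of 6 with median-ratio and quantile scaling and without tail replicate 1, pectoral replicate 3 or tail replicate 2. RBM39, an SR-related splicing factor that resembles U2AF, had 2 rows. RBM39b had pectoral values of 0.766, 0.248 and 0.131 TPM and tail values of 2.10, 1.10 and 1.09 TPM, with no overlap (log2 fold change -0.82, SE 0.64, limma adjusted p = 0.867). RBM39a had 2.17, 0.844 and 1.29 TPM against 1.86, 6.16 and 14.5 TPM, and its groups overlapped through tail replicate 1.

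MEX3B, a KH-domain protein that represses target mRNAs, had pectoral values of 4.65, 2.02 and 1.81 TPM and tail values of 6.44, 11.4 and 3.94 TPM. Only pectoral replicate 1 exceeded a tail library, replicate 4. TIAL1, a stress granule protein that also promotes use of weak 5′ splice sites, had 0.600, 3.40 and 4.14 TPM against 7.12, 2.83 and 18.6 TPM. TIAL1, RBM39a and SNRPE were the 3 members highest in tail replicate 4, the library with the most rows at 0. RNPS1, which joins the exon junction complex, had pectoral values of 0.752, 0 and 2.64 TPM and tail values of 21.2, 3.17 and 0.0110 TPM. RBM24, known for splicing in muscle and heart, had 2.93, 5.54 and 0.0594 TPM against 4.99, 5.92 and 0 TPM.

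The other 5 rows of this class, ELAVL1 among them, did not reach 1 TPM in 3 libraries and were not tested. YTHDF1, a reader of N6-methyladenosine in mRNA, had pectoral values of 0.00383, 0 and 0 TPM and tail values of 6.55, 6.45 and 0 TPM. Tail replicates 1 and 2 were nearly equal and the other 4 libraries were at or near 0. RBM18 showed the opposite, with 0.907, 2.10 and 0 TPM in pectoral libraries and 0 in all 3 tail libraries. RBM34 was higher in every pectoral library than in any tail library, at 0.825, 0.134 and 0.124 TPM against 0.0270, 0 and 0 TPM. Counting untested rows too, 2 of 45 members were so separated in the pectoral direction, PRPF4 and RBM34, against 4.6% of all rows, and 2 in the tail direction, SNRPE and RBM39b, against 4.19%. SZRD1 reached 1.66 TPM in tail replicate 1. LARP6, a La-related protein that binds collagen mRNAs, stayed at or under 0.706 TPM in all 6 libraries, and SMARCAD1 at or under 1.64 TPM.

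Each row is 1 contig of a Trinity assembly, and 5 members had further contigs of the same Trinity gene in the table, each matched to a different protein accession. The CELF5 contig shares its Trinity gene with a row described as nerve growth factor receptor b and with 1 undescribed row. The pectoral values of those 2 rows were 5.16, 7.58 and 8.96 TPM and 2.20, 1.30 and 1.28 TPM, and each tail library listed both at 0. Summed over the 3 contigs the pectoral levels were 7.91, 14.6 and 13.96 TPM and the tail levels 0.314, 0.763 and 1.82 TPM, with no overlap. Both further contigs reached 1 TPM only in pectoral libraries, so they had to differ in order to be tested. The separation of the sums came from these contigs. Of all tested rows, taken singly, 4.18% were separated in the pectoral direction. On these sums the log2 fold change was 2.77 (SE 1.0, limma adjusted p = 0.598), against 0.97 for the CELF5 contig alone. A neighbouring Trinity gene of the same assembly component, TRINITY_DN18143_c9_g1_i1, had 48.6, 94.5 and 95.2 TPM against 0.152, 0 and 0 TPM and was 1 of the 3 rows past the threshold (log2 fold change 6.20, SE 0.91, limma adjusted p = 0.000448). It carries no description, and it is named after its values were seen. Whether these contigs belong to 1 skate gene was not tested, so the CELF5 value may not stand for a separate gene.

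The contigs of KHDRBS2 differed in their libraries. The undescribed contig of its Trinity gene had pectoral values of 1.75, 2.10 and 2.88 TPM and tail values of 2.15, 0.813 and 0.0295 TPM, whereas the described contig was at 0 in pectoral replicates 2 and 3. Together they had 2.32, 2.10 and 2.88 TPM against 4.73, 2.99 and 0.0295 TPM. On the KHDRBS2 sums, which overlapped, the log2 fold change was 0.25 (SE 1.04, limma adjusted p = 0.988). For SRSF10 the undescribed contig had pectoral values of 0.862, 1.59 and 2.51 TPM and tail values of 0, 0.0186 and 1.26 TPM. It was present in pectoral replicate 3 and tail replicate 4, where the described contig was at 0, and at 0 in tail replicate 1, where the described contig had 7.61 TPM. In pectoral replicates 1 and 2 and tail replicate 2 both contigs were above 0, the described contig at 0.811, 1.83 and 1.19 TPM. The log2 fold change was -0.63 (limma adjusted p = 0.908) for the described SRSF10 contig and -0.02 (limma adjusted p = 0.997) for the sum. For SRSF5b the second contig was highest in the same library, tail replicate 1, as the first. The sums of both contigs lay between 4.001 and 14.9 TPM in pectoral and between 9.98 and 26.4 TPM in tail libraries.

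**Figure D5:**
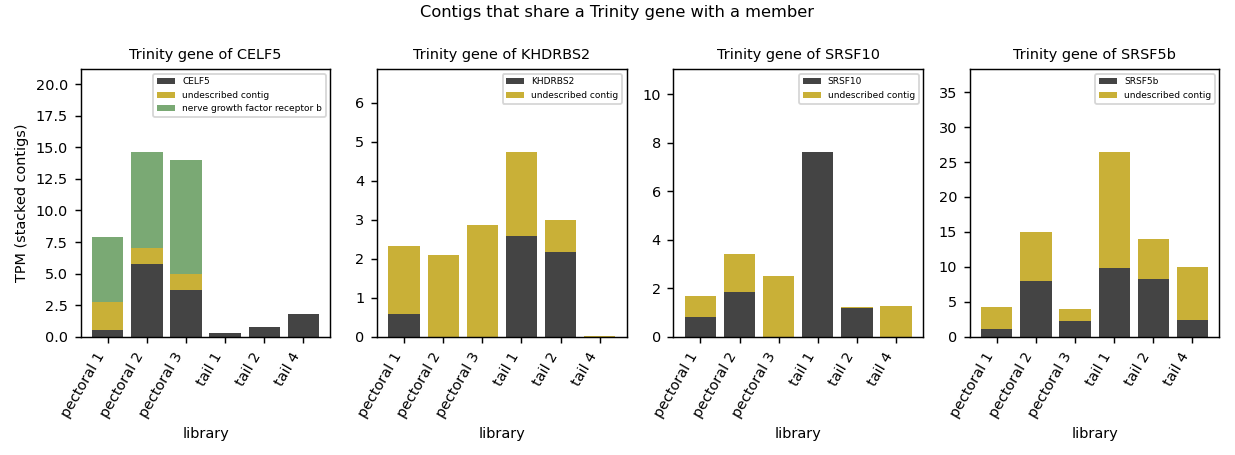
TPM of the contigs that share a Trinity gene with CELF5, KHDRBS2, SRSF10 and SRSF5b, stacked for each library. In the CELF5 panel the tail bars hold the CELF5 contig alone, while the pectoral bars also hold the row described as nerve growth factor receptor b and 1 undescribed contig.

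Other splicing and RNA-processing genes, taken from a list of description patterns outside the members, had 17 rows, of which 11 were tested and 0 passed in either direction. They split into 6 negative and 5 positive log2 fold changes, with a median of -0.10 beside -0.18 for all rows. YBX1, a cold shock domain protein that packages mRNAs, had pectoral values of 8.48, 1.79 and 6.97 TPM and tail values of 20.1, 11.5 and 19.8 TPM. It was the 1 gene of this list with separated groups (log2 fold change -1.56, SE 0.92, limma adjusted p = 0.828). Of all tested rows, 7.6% were separated in the tail direction, so 1 of 11 tested genes is near this background. SMN1, the survival motor neuron protein that assembles Sm cores on snRNAs, had pectoral values of 1.16, 0.704 and 1.12 TPM and tail values of 0.686, 1.25 and 0 TPM. Its relative SMNDC1 had 1.15, 6.28 and 1.25 TPM against 1.25, 6.27 and 8.34 TPM. Both overlapped between the groups, and both are named after their values were seen, as is YBX1.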

How the data were processed

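Per the labels' protocols, RNA was isolated with an Arcturus PicoPure kit and the 6 libraries were of the TruSeq stranded mRNA type. The authors deposited 1 table of TPM per contig of a Trinity assembly, per the file headers. Tools listed in the submitters' processing notes are Trimmomatic 0.33, Salmon 0.8.2 and edgeR 3.18.1, with no step assigned to any of them. For the assembly, its build and the protein search, the sources used here give nothing. The deposited rows sum to 48449 to 74224 TPM per library, so they are part of each library. Of 7081 rows 1 exact repeat was removed, and the deposited sum, fold change and p columns were not used.

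Members were found by the phrases in the description, with none removed by the excluded words (ribosomal protein, translation, kinase). Symbols were assigned by hand from descriptions. Counts and sums cover all 45 members, of which 1 is not reported here by itself. The members, classes and lists were chosen with earlier results of these data known. KHDRBS2 and MBNL2 were moved to the neural class, and SMARCAD1 to its own, after the descriptions were read. Testing used limma 3.58.1 in R 4.3.3 (moderated by empirical Bayes, prior variance following mean level) on log2(TPM + 1). It was two-sided, held all 6 libraries and no covariate, and took rows that reached 1 TPM in 3 or more libraries. The pseudocount of 1 makes fold changes of low rows smaller than the ratio of TPM. Depth is unknown, so no counting interval could be given. The script was tested on simulated data.

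The naming rule took all neural members, members past the threshold (0), the 3 of highest mean TPM in each other class, and up to 6 per direction whose groups were separated and whose higher group averaged 5 TPM or more, which gave 21 members. The other members named were chosen after their values were seen. Alternatives were pseudocounts of 0.1 and 5, other filters, scalings and variance models, the replicate block, leaving out libraries, and, chosen after seeing the data, sums per Trinity gene and another class for 3 rows.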

Additional observations from a re-analysis of the deposited data

How the results depend on the processing

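Under every alternative, 0 members passed the adjusted threshold, while 0 to 3 had an unadjusted p under 0.05. The members' median log2 fold change of -0.39 ran from -0.92 to 0.02 in fits without 1 library (without tail replicates 4 and 1). The fold changes of PRPF4, SNRPE, RBM39b, CELF5, SNRPD2 and SRSF2 kept their sign wherever they were tested. For PRPF4, SNRPE and RBM39b this was fixed in advance for left-out libraries, pseudocounts, array weights and the replicate block, since their groups were separated. Dropping the filter or the variance trend does not alter a fold change, so there the sign was fixed for all of these genes. Sums per Trinity gene likewise left all of them but CELF5 unchanged. PRPF4 and RBM39b were also tested only through the group where they were high. Over all rows, the counts of 2 higher in pectoral and 1 higher in tail libraries became 1 and 0 with a pseudocount of 0.1, a filter of 5 TPM, median-ratio scaling, no variance trend and the replicate block. They became 1 and 1 with a pseudocount of 5, 3 and 0 with quantile scaling, 11 and 15 with array weights, and 0 and 0 when pectoral replicate 1 was left out along with tail replicate 4. Leaving out 1 library gave 1 to 3 in the pectoral direction (3 without tail replicate 4, 1 without any other) and 0 to 2 in the tail direction (2 without pectoral or tail replicate 2, 0 without any other). The cause was not tested. The filter of 5 TPM kept 909 rows and 4 members. Replicate numbers 1 and 2 are shared by the groups, but deviations of same-numbered libraries correlated at -0.033 and -0.003 across rows, so the numbers were not taken as pairs. In the block fit the members' median was -0.81. Pectoral replicate 3 and tail replicate 4 have no same-numbered library, so that fit compared the groups through replicates 1 and 2 alone. With RBM39a, RBM39b and RNPS1 counted under SR proteins, an alternative chosen after seeing the data, the SR sums no longer overlapped. In tail replicate 4 this rested on RBM39a, with 14.5 of the 23.4 TPM. It also rested on the choice of rows, since no other rows were moved to the SR class. Most members lay under 5 TPM, and the unknown depth limits what such low values can show.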

Other observations

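SYNCRIP, also called hnRNP Q, is an RNA-binding protein of neuronal transport granules whose description the rule did not match, and it was chosen after its values were seen. It had pectoral values of 2.25, 0.997 and 2.20 TPM and tail values of 5.55, 5.45 and 0.640 TPM. Tail replicates 1 and 2 were above every pectoral library and tail replicate 4 was below them all. The log2 fold change was -0.58 (SE 1.03, limma adjusted p = 0.922). A further row described as SYNCRIP-like, which did not pass the filter, had 1.44, 0.101 and 0.106 TPM against 5.81, 0 and 0 TPM.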
